A study of Mus musculus with 16 samples.

Results

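The G2 and mitosis genes are 40 mouse genes whose products take a cell from G2 through mitosis and cytokinesis. They were taken by gene symbol from 3 tables of normalized counts of sorted cardiac fibroblasts, which together list 19707 genes. All 40 symbols are listed in the table of Tcf21 loss in the uninjured heart (18634 genes) and in the table of TCF21 gain during infusion (17730 genes). In the table of Tcf21 loss during infusion (17303 genes) 38 are listed, and Aurka and Aurkb are not listed under those symbols. Every listed member passed the filter on low values, a mean of at least 10 normalized counts over the libraries of a table.

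The 16 libraries form 6 groups, and tamoxifen was given to the mice of all of them, aged 8 to 12 weeks. In the loss arm the groups were Tcf21-MerCreMer controls and Tcf21-MerCreMer:Tcf21-fl mice, in which tamoxifen lets a Cre driven by Tcf21 delete the floxed Tcf21 (3 control and 3 deleted libraries without injury, 2 weeks after tamoxifen; 3 control and 2 deleted libraries after an infusion of angiotensin II and phenylephrine lasting 1 week). In the gain arm the groups were Pdgfra-creERT controls (3 libraries) and Pdgfra-creERT:Col1a1-TCF21 mice (2 libraries), in which Cre made in Pdgfra-expressing cells switches on a TCF21 transgene, both after the same infusion. All mice also carried a Rosa26 EGFP reporter behind a loxP-flanked stop, and fibroblasts were sorted by flow cytometry through this reporter, which marks cells with past Cre activity. Controls of both arms carry the Cre of their arm. Angiotensin II and phenylephrine are agonists that drive cardiac fibrosis.

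The transition from G2 into mitosis is driven by Cdk1 bound to cyclin A or cyclin B, with the Polo-like and Aurora kinases. Genes for these proteins are transcribed together late in the cycle by FOXM1 and B-MYB acting with the MuvB complex, and the DREAM complex, which shares MuvB, represses them in resting cells. A short promoter element, the cell cycle genes homology region (CHR), is the site through which MuvB reaches many of them, often beside CCAAT boxes bound by NF-Y. Fibroblasts of the healthy adult heart rarely divide, and after pressure overload or agonist infusion they go through a wave of division.

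Of the 40 genes, 33 have an entry in the RefSeq promoter table (build GRCm38.p6). Aurkb, Tpx2, Incenp, Kif20a, Pbk, Ccna2 and Foxm1 have none. The 250 bases before each start were searched on both strands for the CHR, as TTTGAA or TTCGAA, and for CCAAT. A CHR match was found in 11 of the 33 (33.3%), against 19.6% of 27025 genes in the table. A CCAAT match was found in 25 (75.8%, against 37.5%), and both matches in 10 (30.3%, against 7.93%). With the 50 bases after the start included, a window chosen after the data were seen, a CHR match was found in 26 (78.8%, against 21.7%), and both in 23 (69.7%, against 9.65%). For 15 genes the only CHR match lay after the start. A match is a description of the letters, not evidence of a bound site.

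Stretches of 100 bases that end at the start are shown for 6 genes because the values of these genes are followed below and each stretch holds a CHR match. Ube2c also holds one but is not shown, since more than 30 bases of its stretch lie inside the GENCODE gene. The stretches of Cdk1, Cdc20 and Prc1 also reach into their GENCODE genes, by fewer bases. Capitals mark the CHR and CCAAT matches on either strand, where TTCAAA and ATTGG are the same elements read on the other strand. They are Cdk1 (chr10:69352913-69353012, minus strand), Cdc20 (chr4:118437344-118437443, minus), Kif11 (chr19:37376282-37376381, plus), Top2a (chr11:99024190-99024289, minus), Prc1 (chr7:80294376-80294475, plus, the second of its starts) and Mki67 (chr7:135716380-135716479, minus).
Cdk1: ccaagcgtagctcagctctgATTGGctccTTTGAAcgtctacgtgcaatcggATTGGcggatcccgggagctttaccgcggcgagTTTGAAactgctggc
Cdc20: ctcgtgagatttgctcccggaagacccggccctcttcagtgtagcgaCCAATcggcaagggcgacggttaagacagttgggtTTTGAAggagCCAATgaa
Kif11: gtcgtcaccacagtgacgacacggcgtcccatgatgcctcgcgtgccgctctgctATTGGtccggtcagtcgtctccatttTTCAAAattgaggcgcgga
Top2a: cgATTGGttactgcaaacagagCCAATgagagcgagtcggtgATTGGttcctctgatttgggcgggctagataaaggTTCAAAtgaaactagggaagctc
Prc1: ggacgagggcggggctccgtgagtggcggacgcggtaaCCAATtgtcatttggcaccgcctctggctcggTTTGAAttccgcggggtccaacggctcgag
Mki67: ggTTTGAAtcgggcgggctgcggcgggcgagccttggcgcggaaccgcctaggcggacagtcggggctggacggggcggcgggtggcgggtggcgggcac
In Cdk1, Cdc20, Kif11, Top2a and Prc1 the CHR match nearest the start begins 15 to 30 bases before it, and the nearest CCAAT match begins 10 to 35 bases from its first base. In Mki67 the match begins 98 bases before the start, and no CCAAT match lies in the stretch.

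**Figure D1:**
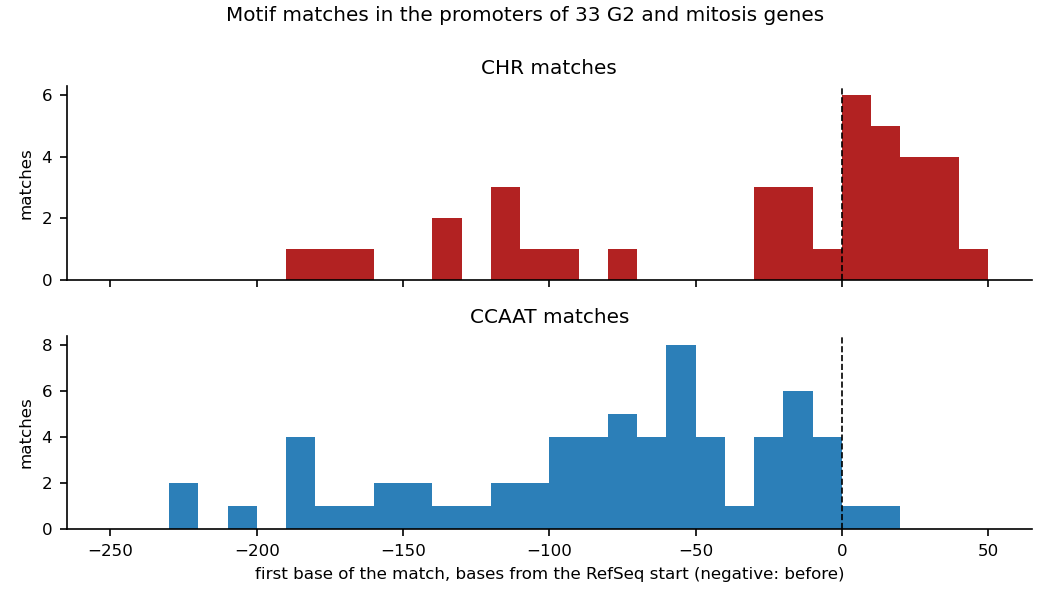
Number of CHR matches (top) and CCAAT matches (bottom) in the 35 promoter entries of 33 G2 and mitosis genes, by distance of the first base of the match from the RefSeq start in bases, in bins of 10 bases. Ect2 and Prc1 have several starts, so the same site can be counted from each. CHR matches gather around and just after the start, and CCAAT matches before it.

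The targeted gene checks the labels. Tcf21 was 7825, 8081 and 7507 normalized counts in the uninjured controls and 1244, 1254 and 1718 after deletion. It was 2814, 1802 and 1510 in the infused loss controls and 258 and 185 after deletion, and 6058, 5145 and 6235 in the gain controls against 14820 and 13500 with the transgene. Each difference passed the test (limma adjusted p = 4.2e-05, 0.0049 and 0.0045). Normalized counts summed to 27814940 to 40970391 per library, which does not give the number of reads. All 12 fibroblast markers were listed and tested in each table, and of 6 epicardial markers 1 was listed and none passed the filter. Ccnb1, Ccnb2 and Kif4 have annotated pseudogene copies, and Foxm1, Ccna2, Cdc20, Ube2c, Cdca8, Kif4, Nusap1, Kif20a and Prc1 overlap a protein-coding neighbour and Knstrn an antisense gene, so their values may hold reads of both. Whether the libraries of a group came from different animals is not labelled, so each p-value reflects library-to-library spread, which may be technical.

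TCF21 gain during infusion asked whether more TCF21 changes the response of fibroblasts to the agonists. For all 40 genes, both gain libraries lay above all 3 controls. The log2 difference ran from 0.89 (Anln) to 1.71 (Ttk), with a median of 1.43, and the ratio of group means ran from 1.71 to 2.83. No member passed the adjusted threshold of 0.05, with smallest limma adjusted p = 0.0651 for Knstrn, while 38 of 40 had an unadjusted p below 0.05 against 20.4% of all genes. The members moved together between libraries, so their counts are not counts of independent genes. Over all 15369 genes tested, 4.14% passed (242 higher and 395 lower), and 19.1% had both gain libraries above all controls. Scaling the libraries to equal sums moved the median of all genes to 0.11 on the log2 scale and the split of calls to 340 higher and 266 lower, with a member median of 1.53 and again no member past the threshold.

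The controls of the gain table lay far apart for these genes. Control 3 was the lowest library for 40 of 40 genes, against 25.5% of all genes tested, and control 1 was the highest control for all 40. The highest control was 3.66 times the lowest at the median gene, from 1.81 times for Incenp to 6.90 times for Ttk. Relative to the control mean, the median member was 0.76, 0.26 and -1.09 in controls 1 to 3 and 1.53 and 1.31 in the gain libraries on the log2 scale. Without control 3, 14 members passed the limma test and the median difference was 0.85: Foxm1, Ccna2, Ccnb1, Ccnb2, Cdk1, Cdc20, Plk1, Cenpa, Nuf2, Knstrn, Kif2c, Tpx2, Hmmr and Kif20a. In that fit 343 genes rose and 478 fell of all 15287 tested. Without control 1, Bub1 alone of the members passed, where 118 genes rose and 104 fell of all 15429 tested.

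**Figure D2:**
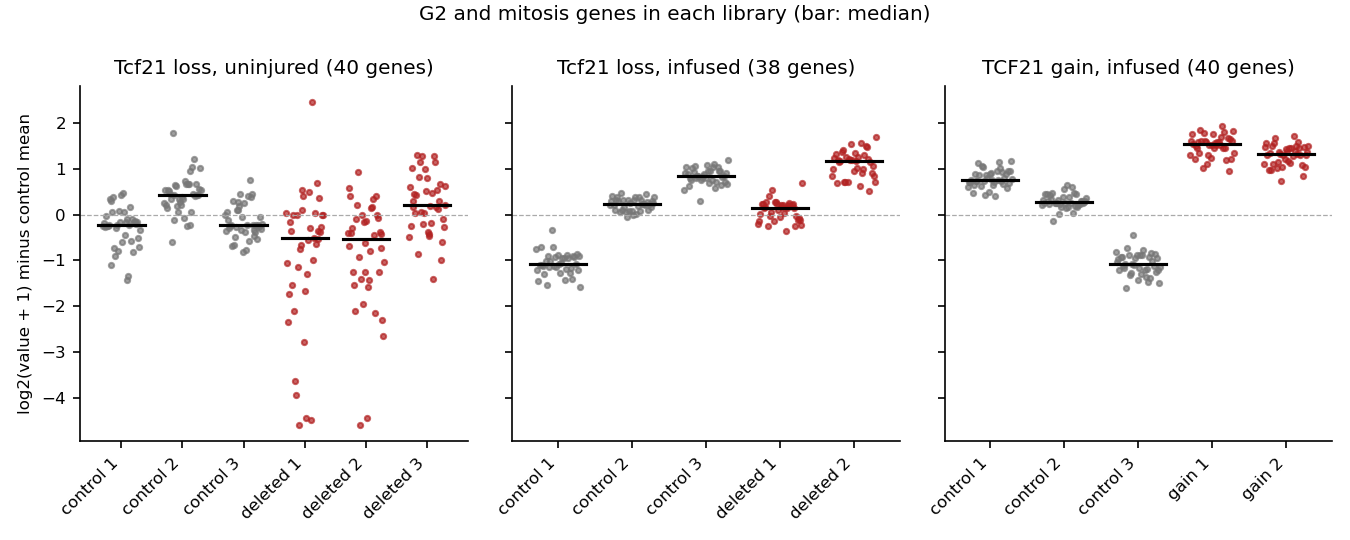
Each point is 1 G2 and mitosis gene in 1 library, as log2(value + 1) minus the mean of the controls of its table; bars are medians, grey points control libraries and red points deleted or gain libraries. The gain libraries sit at medians of 1.53 and 1.31, above the controls, while in the infused loss table deleted library 1 sits among the controls.

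Tcf21 loss during infusion asked whether less TCF21 changes the same response. All 38 listed genes had a log2 difference above 0, from 0.13 (Prc1) to 1.19 (Cdca3), with a median of 0.63, but the groups overlapped for every one. None passed the test (smallest limma adjusted p = 0.447, Melk), where 0.912% of 14799 genes did. None had an unadjusted p below 0.05, against 16.1% of all genes. Groups without overlap made up 35% of all genes and 0 of the 38. The 2 deleted libraries stood apart from each other: medians relative to the control mean were 0.15 and 1.16, beside -1.08, 0.23 and 0.84 in the controls. Control 1 was the lowest library for 38 of 38 genes, against 22.6% of all genes tested. Deleted library 2 was the highest for 32 genes and control 3 for the other 6. The median difference was 0.083 without control 1 and 0.15 without deleted library 2, with 26 and 25 of 38 genes above 0, and it was 1.07 without control 3 and 1.16 without deleted library 1.

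Foxm1 (chromosome 6, 128362967 to 128376146, plus strand, GRCm38) encodes the transcription factor that drives many of the other members. In the gain table it was 746, 564 and 276 in the controls and 1197 and 1055 with the transgene. The groups did not overlap, with means of 529 ± 237 (SD, n = 3) and 1126 ± 100 (SD, n = 2) and a log2 difference of 1.20 (SE 0.37, limma adjusted p = 0.131). Under loss during infusion it was 261, 505 and 638 in the controls and 380 and 781 after deletion, so the controls lay on both sides of deleted library 1.

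Among the cyclins and their kinase, Ccnb1 (cyclin B1, chromosome 13, 100778650 to 100786570, minus strand) had the highest ratio of means of all members in the gain table. It was 818, 590 and 253 in the controls and 1668 and 1461 with the transgene, with a log2 difference of 1.65 (SE 0.43, limma adjusted p = 0.0856). Ccna2, the cyclin A of S phase and early mitosis, was 1130, 860 and 333 against 2085 and 1907, and Ccnb2 was 593, 482 and 153 against 1024 and 871. For each of these cyclins the lower gain library exceeded the highest control, by 1.79 times for Ccnb1, 1.69 for Ccna2 and 1.47 for Ccnb2. Cdk1, the kinase they activate, was 604, 594 and 231 against 1006 and 851. Its log2 difference of 1.08 (SE 0.40) was the lowest of this group.

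Under Tcf21 loss with infusion the same genes overlapped. Ccnb1 was 182, 657 and 1026 in the controls and 498 and 1169 after deletion. Ccna2 was 274, 788 and 1196 against 576 and 1266, and Cdk1 was 232, 407 and 591 against 452 and 614. Deleted library 2 exceeded control 3 by little for these 3 genes, and deleted library 1 lay between the controls. Ccnb2 was 158, 392 and 630 against 400 and 847, a log2 difference of 0.78 (SE 0.58, limma adjusted p = 0.542).

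Cdc20 activates the anaphase-promoting complex, and Ube2c is its ubiquitin-conjugating enzyme. In the gain table Cdc20 was 847, 662 and 283 in the controls and 1534 and 1383 with the transgene (log2 difference 1.43, SE 0.41, limma adjusted p = 0.111). Ube2c was 441, 282 and 110 against 657 and 469, and with Birc5 it was 1 of the 2 members whose 95% interval reached 0 (-0.01 to 2.42). Under loss, Cdc20 was 240, 641 and 903 against 569 and 1173, and Ube2c was 82.5, 236 and 304 against 202 and 403. The core subunits of the complex had a median log2 difference of 0.04 over 16 genes in the gain table and 0.12 over 16 in the infused loss table, with none past the test. Among them Anapc7 was 0, 0 and 1.93 in the infused loss controls and 46.9 and 10.4 after deletion. In the gain controls it was 1647, 1724 and 1679, and the source of this gap between the tables was not tested.

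The mitotic kinases had a median log2 difference of 1.49 over 7 genes in the gain table, from 1.01 (Bub1b) to 1.71 (Ttk). Plk1, which drives entry into and passage through mitosis, was 472, 380 and 126 in the controls and 851 and 802 with the transgene. Aurka, the Aurora kinase of spindle poles, was 293, 224 and 83.6 against 448 and 380. Bub1 (chromosome 2, 127801122 to 127831865, minus strand), a kinase of the spindle checkpoint, was 230, 115 and 75.6 against 385 and 401. Bub1 was 1 of 4 members with gain library 2 above gain library 1, and its log2 difference was 1.63 (SE 0.42, limma adjusted p = 0.083). Under loss, Plk1 was 121, 367 and 603 against 364 and 669. Melk, a kinase of dividing cells, had the smallest p there, with 53.9, 122 and 195 in the controls and 158 and 260 after deletion (log2 difference 0.89, SE 0.52). The other kinases of that table lay between 0.34 (Bub1b) and 0.91 (Bub1).

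**Figure D3:**
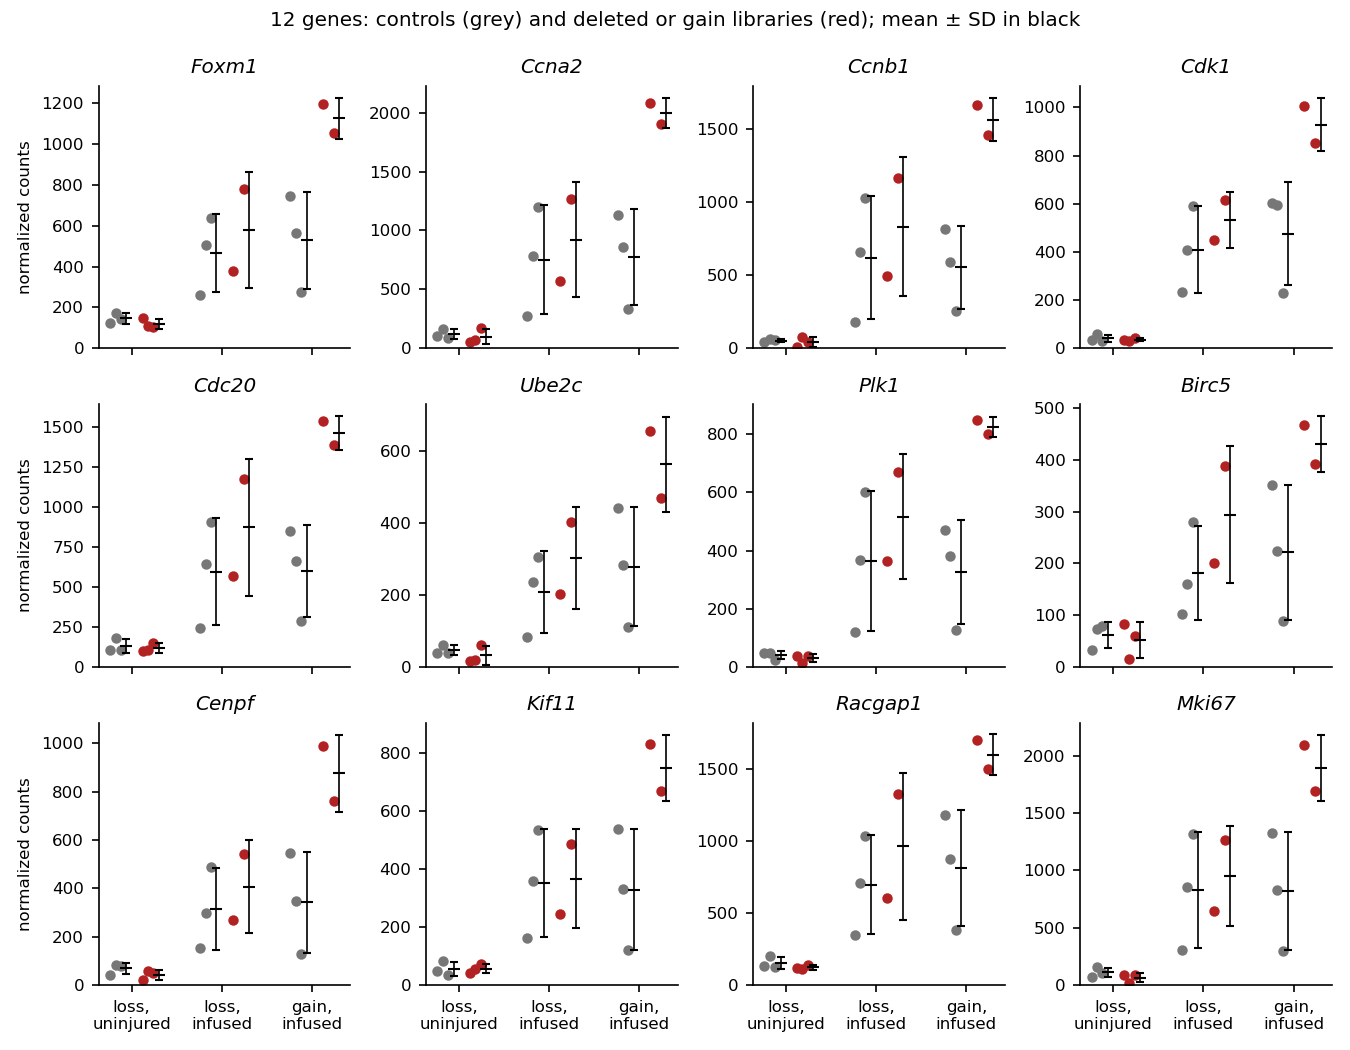
Normalized counts of 12 G2 and mitosis genes in every library of the 3 tables, with controls in grey, deleted or gain libraries in red and mean ± SD in black; each table was normalized on its own. In the gain column the red points lie above the grey points in all 12 panels, and in the infused loss column they overlap.

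The chromosomal passenger complex corrects the attachment of chromosomes to the spindle, with Aurkb as its kinase and Incenp, Birc5 and Cdca8 as its other subunits. In the gain table Aurkb was 306, 230 and 86.8 in the controls and 545 and 454 with the transgene. Birc5 (survivin) was 351, 224 and 88.6 against 468 and 393, and Incenp was 544, 413 and 300 against 875 and 674. Incenp had the narrowest control range of all members and a log2 difference of 0.92 (SE 0.25, limma adjusted p = 0.0993), while that of Birc5 was 1.16 (SE 0.51, limma adjusted p = 0.256). Under loss during infusion, Birc5 was 102, 160 and 280 against 201 and 387, among the 4 smallest p values there (limma adjusted p = 0.461). Incenp was 290, 381 and 452 against 334 and 604.

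At the centromere and kinetochore, where spindle fibres attach, 7 genes had a median log2 difference of 1.47 in the gain table. Knstrn (chromosome 2, 118814003 to 118853957, plus strand), a kinetochore and spindle adaptor, was 218, 215 and 96.2 in the controls and 497 and 456 with the transgene. It had the widest gap of any member, the lower gain library being 2.09 times the highest control (log2 difference 1.52, SE 0.36, 95% interval 0.68 to 2.36). Cenpa, the histone H3 variant of centromeres, was 448, 416 and 170 against 746 and 729. Cenpf, a large kinetochore protein, was 547, 350 and 129 against 989 and 764. Nuf2, a partner of Ndc80, was 369, 368 and 95.7 against 696 and 640. The other kinetochore genes, Cenpe, Ndc80 and Spc25, had log2 differences of 1.31 to 1.47. Cenpa under loss during infusion was 133, 268 and 456 against 297 and 738, and Cenpf was 153, 300 and 489 against 270 and 544.

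Spindle motors and spindle proteins had the highest median of all roles in the gain table, 1.57 over 6 genes. Kif11, the motor that pushes spindle poles apart, was 538, 329 and 120 in the controls and 829 and 669 with the transgene. Tpx2, which activates Aurora A on the spindle, was 893, 610 and 280 against 1458 and 1329. Kif2c, Kif4, Nusap1 and Hmmr had log2 differences of 1.53 to 1.71. Kif11 under loss during infusion was 163, 357 and 533 against 246 and 486, so that control 3 exceeded both deleted libraries. Its log2 difference was 0.14 (SE 0.51), and that of Tpx2 was 0.75 (SE 0.52).

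The midzone and cytokinesis genes build the central spindle and the furrow. In the gain table Prc1, which bundles midzone microtubules, was 1473, 941 and 366 in the controls and 2521 and 1679 with the transgene. Racgap1, a subunit of centralspindlin, was 1179, 879 and 382 against 1700 and 1501. Kif20a, a midzone motor, was 1018, 722 and 358 against 1760 and 1758, with a log2 difference of 1.46 (SE 0.38, limma adjusted p = 0.0849). Its gain libraries were nearly equal, whereas those of Prc1 differed by more than its margin over control 1. Anln, the anillin of the furrow, had the smallest difference of all members (0.89, SE 0.38). In the infused loss table Prc1 was 208, 471 and 610 against 331 and 555, and Racgap1 was 347, 710 and 1036 against 601 and 1326. Prc1 was the member with the least difference there (0.13, SE 0.46). It was also the only one whose infused control mean differed by more than 2-fold between the separately normalized tables. The log2 ratio of its means, loss over gain, was -1.11, beside a median of -0.42 over all 16496 genes.

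Mki67 (Ki-67, which coats mitotic chromosomes and marks cycling cells; chromosome 7, 135689784 to 135716361, minus strand) was 1329, 830 and 299 in the gain controls and 2097 and 1693 with the transgene. Top2a, the topoisomerase that untangles sister chromosomes, was 1616, 882 and 256 against 2531 and 1837. Both had wide control ranges, of 4.44 and 6.32 times, and log2 differences of 1.45 (SE 0.54) and 1.59 (SE 0.66). In the infused loss table Mki67 was 304, 859 and 1316 against 643 and 1261, and Top2a was 430, 961 and 1272 against 694 and 1311. Cdca3, an adaptor for mitotic entry, was 38.3, 151 and 263 against 187 and 373 after deletion. Its log2 difference of 1.19 was the highest of that table, with an interval from -0.63 to 3.01.

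**Figure D4:**
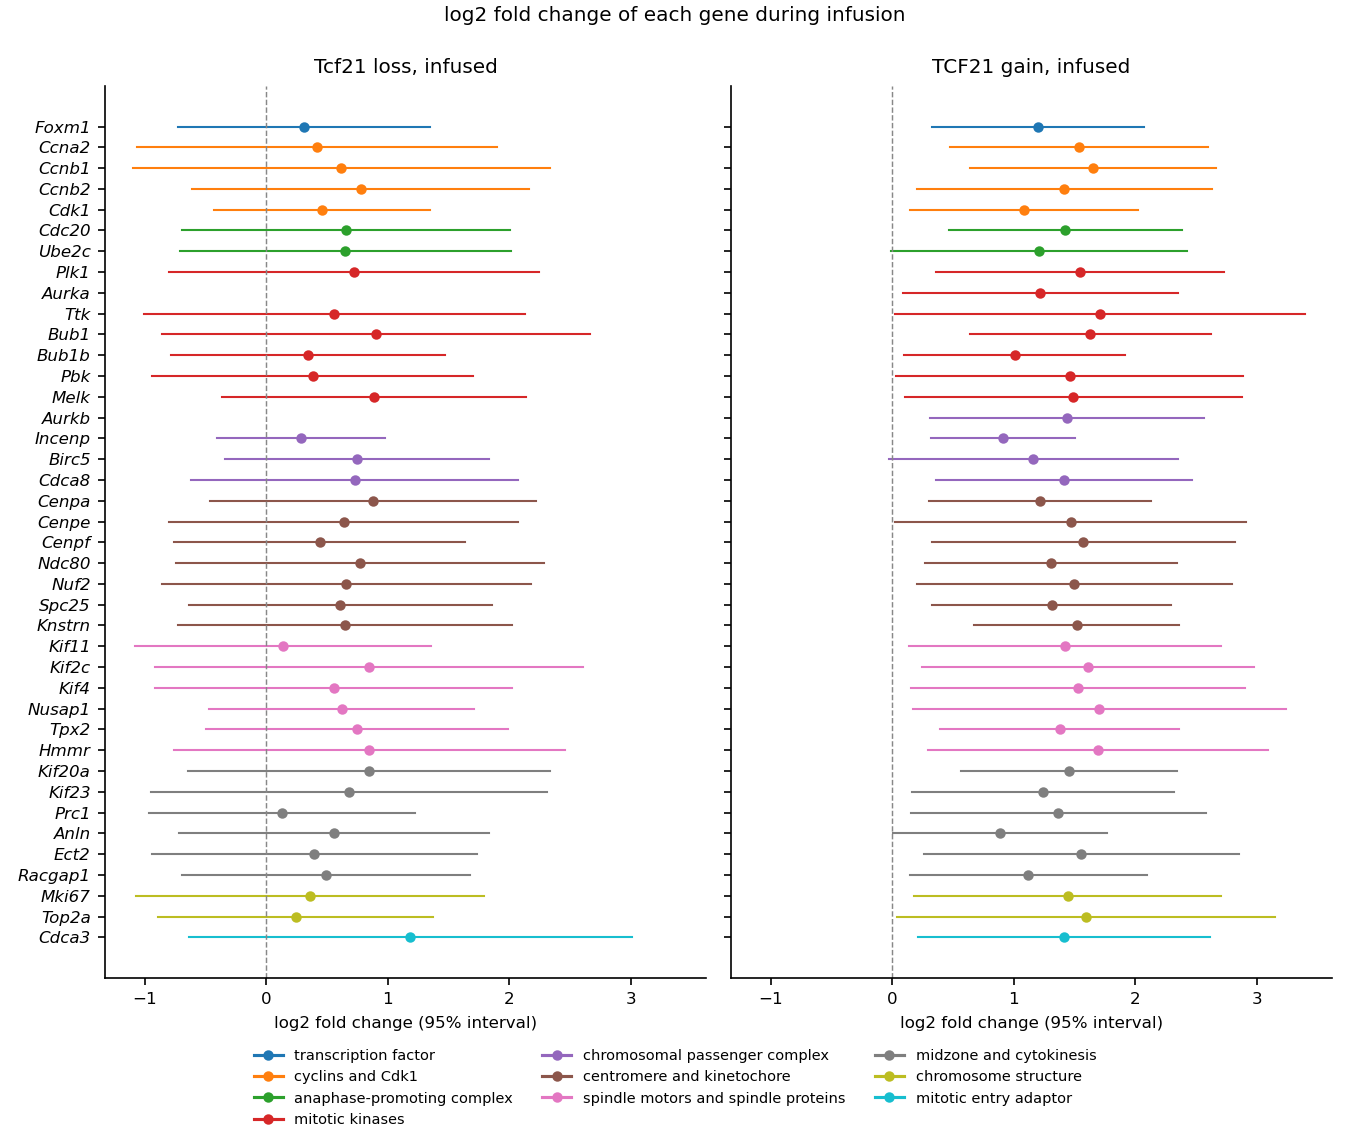
log2 fold change of each G2 and mitosis gene with its 95% interval from limma, in Tcf21 loss (left) and TCF21 gain (right) during infusion, coloured by role. All points lie above 0, every interval on the left spans 0, and 38 of 40 intervals on the right lie above it.

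Loss of Tcf21 in the uninjured heart asked for its effect without agonists. The members were near the low end there, with a median value per library of 30.6 to 77.5 normalized counts. Of 40 genes 33 had a log2 difference below 0 and 7 above, with a median of -0.34, and none passed the test, where 3.58% of 15544 genes did. Only Ndc80 and Melk had an unadjusted p below 0.05, against 21.2% of all genes. Ndc80, a subunit of the kinetochore complex that binds microtubules, was 28.6, 19.3 and 15.3 in the controls and 0, 0 and 15.1 after deletion (limma adjusted p = 0.166). Melk was 11.7, 35.8 and 28.01 against 0, 0 and 23.9 (limma adjusted p = 0.213). Ndc80 was the only member with all deleted libraries below all controls, which 13.6% of all genes showed.

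Values of 0 in that table came from 2 deleted libraries: Ttk, Bub1, Melk, Ndc80 and Kif2c in library 1, and Melk and Ndc80 in library 2. Over all listed genes, 5.49%, 3.42% and 3.14% were at 0 in the 3 deleted libraries and 1.44% to 1.62% in the controls; the part of this in the members' values was not tested. Without deleted library 3, Melk and Ndc80 fell (limma adjusted p = 0.0397 and 0.0393) and the median was -0.75. In that fit 169 genes rose and 289 fell of all 15499 tested. The deleted libraries did not move together, at medians of -0.51, -0.53 and 0.20 relative to the control mean, beside -0.23, 0.43 and -0.22 in the controls. Mki67 was 73.5, 154 and 101 in the controls and 86.4, 20.4 and 86.1 after deletion. Top2a was 77.5, 256 and 101 against 125, 19.4 and 146, and Ccnb1 was 43.2, 61.1 and 54.7 against 9.54, 79.4 and 44.1. The library that was lowest thus differed between genes, unlike in the infused tables. Foxm1 was 122, 173 and 143 against 149, 109 and 102, Cdc20 was 104, 177 and 103 against 96.2, 101 and 151, and Incenp was 197, 240 and 263 against 146, 231 and 200. Bub1b, at 125, 88.0 and 79.3 against 94.4, 181 and 170, was one of the 7 above 0 (log2 difference 0.58, SE 0.33). In bulk samples, fewer cells of a type and less RNA per cell cannot be told apart.

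The 38 genes common to the tables made up 51.7 to 101 of every 1000000 normalized counts in the uninjured libraries, 223 to 922 in the infused loss libraries and 173 to 1022 in the gain libraries. The tables were normalized separately, so these shares are given side by side with no test. In both infused tables the control libraries spanned a similar range, and the infused control means of 37 of 38 genes lay within 2-fold of each other. The median log2 ratio of these means, loss over gain, was -0.07 for the members and -0.42 for all 16496 genes. The loss effect during infusion minus that without it was above 0 for 36 of 38 genes with a median of 0.96, but none passed (smallest limma adjusted p = 0.372, Ndc80), where 0.149% of 14130 genes did. Ndc80 and Melk, 2 of the 38, had an unadjusted p below 0.05, as did 11.6% of all genes. The median was 0.43 without control 1 and 0.39 without deleted library 2 of the infused table, and 1.47 without deleted library 1. The gain effect minus the loss effect during infusion, a contrast chosen after the data were seen, was above 0 for 38 of 38 genes with a median of 0.77. That median was 0.24 without control 3 of the gain table, 0.28 and 0.34 without deleted library 1 and control 3 of the infused loss table, and 1.34 and 1.28 without control 1 and deleted library 2 of the latter. All 38 of its 95% intervals spanned 0, and none passed (smallest limma adjusted p = 0.493, Prc1), where 2.93% of 14319 genes did. The interval of Prc1 ran from -0.59 to 3.07 and that of Incenp from -0.35 to 1.60, so the size of any difference between gain and loss was not resolved. The arms also differ in their Cre, Tcf21-MerCreMer against Pdgfra-creERT, and this contrast cannot tell that apart from gain against loss.

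Other cell cycle lists were followed library by library. With TCF21 gain, 67 of 70 other mitosis genes lay above 0, with a median of 1.09. For 57 of them both gain libraries lay above all controls, against 19.1% of all genes tested. Stil, a centriole assembly factor, rose from 103, 87.7 and 79.5 to 277 and 218 (log2 difference 1.45, limma adjusted p = 0.0205), and its controls lay closer together than those of any member. Of 51 genes of the G1/S transition and replication, 49 lay above 0 with a median of 0.53. Mcm2, a subunit of the replicative helicase, rose from 709, 604 and 397 to 1103 and 1366 (limma adjusted p = 0.0473). Neither list had more than this 1 gene past the test, where 4.14% of all genes passed.

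The regulators of the programme gave smaller medians in the gain table. The 18 genes of DREAM and the B-MYB complex had a median of 0.12, with none past the test. Mybl2, which encodes B-MYB, was 150, 63.0 and 32.5 against 186 and 261 (log2 difference 1.69, limma adjusted p = 0.163). Rbl2, the p130 subunit of DREAM, was 4216, 4052 and 4593 against 3425 and 3190 (limma adjusted p = 0.0701). The 13 CDK inhibitors and p53 targets had a median of -0.05, and Btg2, an antiproliferative gene, fell from 28980, 22670 and 31810 to 12370 and 10240 (log2 difference -1.29, limma adjusted p = 0.0103). Lower Btg2 and Rbl2 were not limited to gain. Under loss during infusion Btg2 was 20280, 22360 and 19090 against 13880 and 10300 (log2 difference -0.78, limma adjusted p = 0.0886). Rbl2 was 3218, 3027 and 2791 against 2375 and 2393 there (log2 difference -0.335, limma adjusted p = 0.18). In uninjured loss the log2 difference of Btg2 was -0.47 (limma adjusted p = 0.081).

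In the infused loss table, 56 of 67 other mitosis genes lay above 0 with a median of 0.28 and none passed. Of 48 genes of G1/S and replication, Mcm6, another helicase subunit, fell from 1861, 1877 and 2114 to 647 and 708 (limma adjusted p = 0.0017). The list median was 0.10, and 0.912% of all genes passed in this table. Cdkn2b, the inhibitor p15, rose from 643, 675 and 752 to 1184 and 1292 (limma adjusted p = 0.0301). In the uninjured table, Ckap5, a microtubule polymerase, fell from 2611, 3023 and 3468 to 2238, 2130 and 2102 (limma adjusted p = 0.0493). It was the only 1 of 62 other mitosis genes to pass, and none of 49 genes of G1/S and replication did, against 3.58% of all genes.

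**Figure D5:**
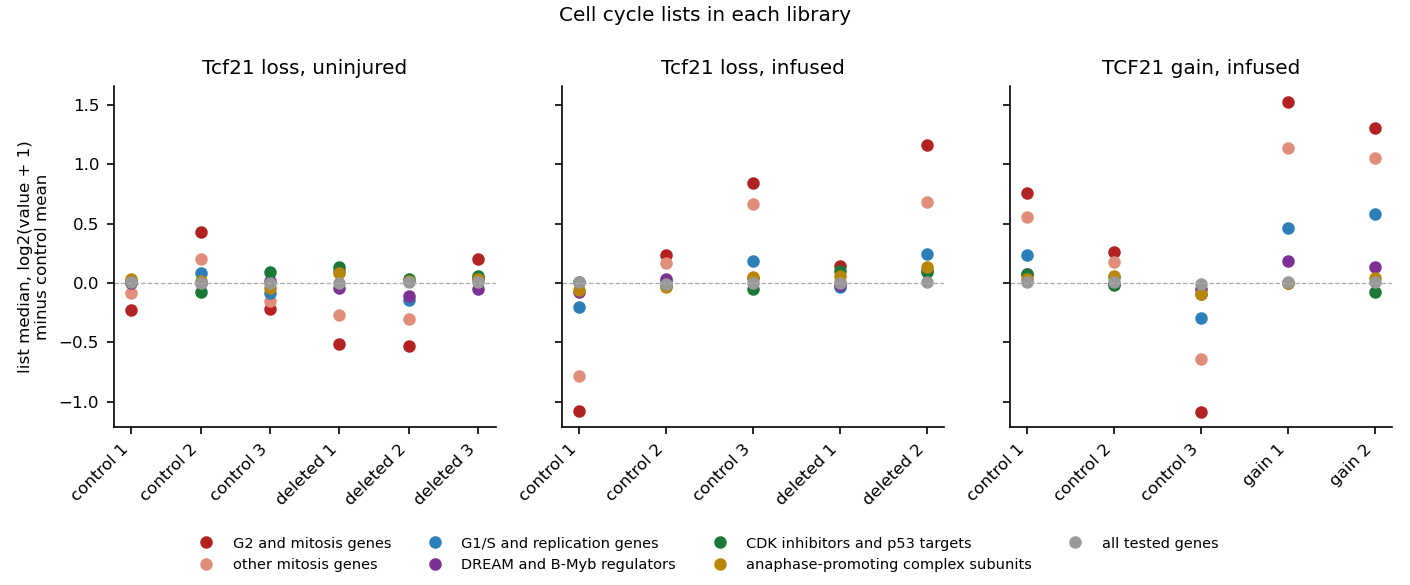
Median of each cell cycle list in each library, as log2(value + 1) minus the control mean, for the 3 tables. The G2 and mitosis genes and the other mitosis genes spread most between libraries, from -1.09 to 1.53 for the former in the gain table, while the median of all tested genes stays near 0.

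Markers of other cells also differed between the libraries. With TCF21 gain, 5 erythroid and platelet markers were tested, with medians of 0.41, -0.04 and -0.75 in the controls and 2.33 and 0.85 with the transgene, the same order of libraries as the members. Their summed level was 247 to 330 in the controls and 328 to 385 with the transgene, 4 of 5 were above 0, and none passed. Myeloid markers were above 0 for 15 of 17, with none past the test and medians of -0.24, -0.09 and 0.35 in the controls and 0.18 and 0.92 with the transgene; their summed level was 2660 to 4076 against 3142 to 5697. Endothelial markers had a median of 0.96 in gain library 1 and -0.37 in gain library 2. Tek, an endothelial receptor, fell from 9442, 7729 and 10700 to 5687 and 4943 (limma adjusted p = 0.0297), while 8 of 12 endothelial markers lay above 0. Levels within this list differed widely in the same controls, with Emcn at 17.3, 14.3 and 12.9 and Eng at 5488, 5418 and 6461. Under infused loss Tek was 6450, 5255 and 3455 against 2922 and 2483 (limma adjusted p = 0.189), with 7 of 11 endothelial markers above 0. Which cells gave the Tek signal was not tested. The mural marker Des, a muscle intermediate filament, rose (limma adjusted p = 0.0419), while 6 of 9 mural markers lay below 0. The cardiac actin Actc1 rose from 134, 154 and 102 to 336 and 286 (limma adjusted p = 0.0315), 5 of 11 cardiomyocyte markers lay above 0, and their summed level was 888 to 959 in the controls and 1085 to 1151 with the transgene. Fibroblast markers had a median of -0.26, with 4 of 12 above 0. Tcf21 itself, the targeted gene, was the only 1 of them past the test. In the infused loss table Hba-a1, an alpha globin, rose from 2.96, 4.06 and 6.91 to 152 and 52.0 (limma adjusted p = 0.038). The summed level of the erythroid and platelet markers there (4 of 5 above 0) was 71.1 to 78.6 against 182 to 504. Their medians were -0.53, 0.49 and 0.19 in the controls and 4.27 and 2.37 after deletion, which is not the order of the members. Cd74, of antigen presentation, fell from 234, 352 and 182 to 62.1 and 39.5 (limma adjusted p = 0.0398), 12 of 12 myeloid markers lay below 0, and their summed level was 1003 to 1180 against 579 to 870. In the uninjured table the mural markers Cspg4, Abcc9 and Kcnj8 fell, 10 of 10 lay below 0, and erythroid and platelet markers (5 of 6 above 0) had a median of 5.39 in deleted library 1 and a summed level of 263 to 299 in the controls and 374 to 1199 after deletion. No marker of these lists was at 0 in all libraries. The part of these cells in the members' values was not tested.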

How the data were processed

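RNA of sorted cardiac fibroblasts was extracted with a micro-scale kit and amplified with SMART-seq V4, per the labels' protocols. The 3 deposited tables hold a normalized signal, estimated counts per gene scaled by the authors separately in each table. The submitters' processing notes name kallisto, DESeq2 and GRCm38; their versions, the annotation and the strandedness are not stated there or in the labels. Whole reads could not be recovered, so no count model was fitted. Every column belonged to a labelled sample (0 others).

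For each table, limma 3.58.1 (R 4.3.3) was run on log2(value + 1) of all genes whose mean reached 10 (lmFit, then eBayes with its trend option). Tests were two-sided, at a Benjamini-Hochberg adjusted p below 0.05 over all genes tested; a fit held the 2 groups compared and no covariate. The interaction of loss with infusion was fitted over the 4 loss groups. The pseudocount of 1 shrinks the fold changes of low genes. The fit was tested on simulated data. Positions are those of GENCODE vM21; promoters are RefSeq's. Members and lists were chosen with earlier results of these data known. All members could be named, with values per library for a panel of 20, for members past the threshold and for the 4 with the smallest p; from the other lists, genes past the threshold and up to 3 with the smallest p. Alternatives varied the pseudocount, filter, scaling, variance model, library weights and replicate block, and left out each library in turn. Groups came from the sample labels, which give no batch.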

Additional observations from a re-analysis of the deposited data

How the results depend on the processing

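In every setting tried except the replicate block, library weights and leaving out a library, no member passed in any comparison. The median difference of the members stayed above 0 in both infused comparisons under all settings, and below 0 in the uninjured comparison. The median of gain minus loss, 0.77, turned to -0.17 with the replicate block, with 13 of 38 genes above 0, and the interaction median of 0.96 was 1.36 with it.

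No label says whether same-numbered libraries are paired. Their deviations from group means correlated at 0.025, -0.054 and -0.042 (uninjured loss), 0.18 and -0.043 (infused loss) and 0.095 and 0.062 (gain). With so few libraries per group, these values cannot show whether the numbers pair the libraries. With the replicate number as a block, 227, 1462 and 1842 genes passed in uninjured loss, infused loss and gain and 79 in the interaction, of which 0, 33, 38 and 0 were members. In the infused tables control 3 has no partner, so the block takes it out of the estimate.

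Without the variance trend 94, 72 and 25 genes passed in uninjured loss, infused loss and gain. With library weights 949, 308 and 1013 passed, and 39 in the interaction; 1 member, Knstrn, passed in gain. Leaving out 1 library gave 88 to 891, 32 to 175 and 124 to 821 genes, and 12 to 57 in the interaction. It gave 0 to 2 members in uninjured loss, 0 to 14 in gain and 0 to 1 in the interaction, and an uninjured median of -0.75 to -0.18.

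The direction of single members turned. With library weights, Ccnb2 was 0.15, Cenpa -0.064 and Kif11 -0.031 in uninjured loss, and Kif11 -0.013 and Prc1 -0.058 in infused loss. Leaving out 1 library, uninjured log2 differences ran from -1.33 to 0.099 for Top2a, -1.30 to 0.17 for Ccnb1, -0.66 to 0.71 for Ccnb2, -0.29 to 0.14 for Cdk1, -0.32 to 0.14 for Cdc20, -0.84 to 0.017 for Plk1, -1.08 to 0.26 for Aurkb, -0.97 to 0.28 for Birc5, -0.10 to 0.46 for Cenpa, -0.18 to 0.43 for Kif11 and -0.89 to 0.077 for Prc1. In infused loss they ran from -0.24 to 0.85 for Mki67, -0.22 to 0.70 for Top2a, -0.19 to 0.99 for Ccna2, -0.11 to 1.23 for Ccnb1, -0.062 to 0.94 for Cenpf, -0.36 to 0.63 for Kif11, -0.32 to 0.50 for Prc1, -0.078 to 1.06 for Racgap1, -0.14 to 0.71 for Incenp and -0.21 to 0.83 for Foxm1. The cause of these turns was not tested. No panel member turned in gain.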
